A study of Mus musculus with 6 samples.

Results

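Prostaglandin and leukotriene synthesis was followed across 10 genes in microglia that had shared a dish with neutrophils carrying or lacking Cd177. The genes were Ptgs1, Ptgs2, Ptges, Ptges2, Ptges3, Tbxas1, Pla2g4a, Alox5, Alox5ap and Lta4h, out of 55335 gene identifiers in the deposited table. They were chosen from their known role in eicosanoid synthesis, with the difference between the same libraries already known, above all the low Ptgs2 with KO neutrophils. Their differences are therefore given as a description and without p-values.

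Each library held RNA of cells labelled as primary microglia from newborn C57BL/6 mice of WT genotype, shaken off a mixed brain culture on day 14, sorted as Ly6G-negative after 24 h of direct contact with neutrophils. The neutrophils came from contused spinal cords at 3 days after injury, from Cd177 WT or Cd177 KO mice, and were isolated with magnetic beads. There were 3 libraries with WT neutrophils (WT) and 3 with KO neutrophils (KO), and no library of microglia alone. The KO strain lacks Cd177 in every cell, so the arms differ by the whole neutrophil population of a knockout mouse. Nothing states that replicates were separate cultures, so errors and p-values measure only the spread between these samples, which may be technical.

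Eicosanoids are short-lived lipid signals made from arachidonic acid. Cytosolic phospholipase A2 frees arachidonate from membranes. Cyclooxygenases turn it into prostaglandin H2, from which terminal synthases make prostaglandin E2 (PGE2), thromboxane or other prostanoids. In the other branch, 5-lipoxygenase, helped by its activating protein, makes leukotriene A4, which a hydrolase converts to leukotriene B4, a strong attractant of neutrophils. Inducible cyclooxygenase and inducible PGE2 synthase are classic transcripts of activated macrophages and microglia.

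Values are FPKM (fragments per kilobase of transcript and per 1000000 mapped fragments), so levels of different genes can be set side by side. FPKM summed to 314085 to 315632 per WT library and to 323588 to 326868 per KO library. Pearson's r of log2(FPKM + 1) across genes was 0.988 to 0.989 within an arm and 0.956 to 0.959 between arms (genes are not independent replicates). Cd177, deleted in the donors of the neutrophils and not in the microglia, had 0.477, 0.113 and 0.151 FPKM in the WT arm and 0.109, 0.0217 and 0.0845 FPKM in the KO arm, so it does not check the labels here. Of 19 microglia and macrophage markers, 11 averaged 1 FPKM or more. Of these, 7 were higher in every KO library than in any WT library, among them Csf1r, Cd68 and Trem2. Another 2 were lower, Adgre1 and Cx3cr1, and 2 overlapped. Over all 11395 genes averaging 1 FPKM or more, 55.8% did not overlap between the arms. Adgre1, the macrophage marker F4/80, had 99.8, 99.7 and 104 FPKM in the WT arm and 40.02, 40.4 and 37.5 FPKM in the KO arm. Cx3cr1, the fractalkine receptor, had 2.82, 2.98 and 2.41 FPKM in the WT arm and 1.04, 1.43 and 0.956 FPKM in the KO arm. The level summed over all 19 was 1501 to 1560.1 FPKM in the WT arm and 1689.9 to 1748 FPKM in the KO arm, most of it Cd68, Lyz2, Ctss and Tyrobp, and the part of these markers in the results was not tested. P2ry12 and Tmem119, which define microglia, stayed under 1 FPKM in every library. Sall1, Fcrls and C1qa were listed at 0 throughout. These defining markers therefore do not bear out the microglial label, and the cells are called microglia here as the labels do. Of 16 neutrophil markers, 15 stayed under 1 FPKM in every library and 7 were listed at 0 in all, among them Ly6g and S100a9. The markers of neutrophils summed to 11.8 to 12.9 FPKM with WT and 11.7 to 13.5 FPKM with KO neutrophils, nearly all of it Cebpe. Without Cebpe the other 15 summed to 1.89 to 2.102 FPKM in the WT arm and 0.913 to 1.30 FPKM in the KO arm, without overlap. Of these 15, 3 were lower in every KO library than in any WT library (Csf3r, S100a8 and Camp) and 0 were higher. The share of 55.8% covers only genes averaging 1 FPKM or more, a level these 15 did not reach. Their part in the results was not tested. Markers of mast cells and basophils (8 of 8) and of astrocytes and oligodendrocytes (10 of 10) stayed under 1 FPKM. Of the 7 platelet markers, 5 did so, while Pf4, which macrophages also express, had 45.9 to 51.8 FPKM.

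Of the 10 genes Ptgs2 changed most, and its mean fell by 164 FPKM while that of Ptgs1 rose by 8.52 FPKM. Ptgs2 encodes the inducible enzyme COX-2 and led the 10 genes in the WT arm and stood seventh in the KO arm. Ptgs1, the constitutive COX-1, went the other way and rose by less than 2-fold. Inducible PGE2 synthase Ptges fell together with Ptgs2, while Pla2g4a, Alox5ap and Lta4h were level or somewhat higher. Alox5, which encodes 5-lipoxygenase, was listed at or near 0 in both arms. Outside the 10 genes, the phospholipase Pla2g5 and the kinase gene Mapkapk2 were lower in the KO arm.

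**Figure D1:**
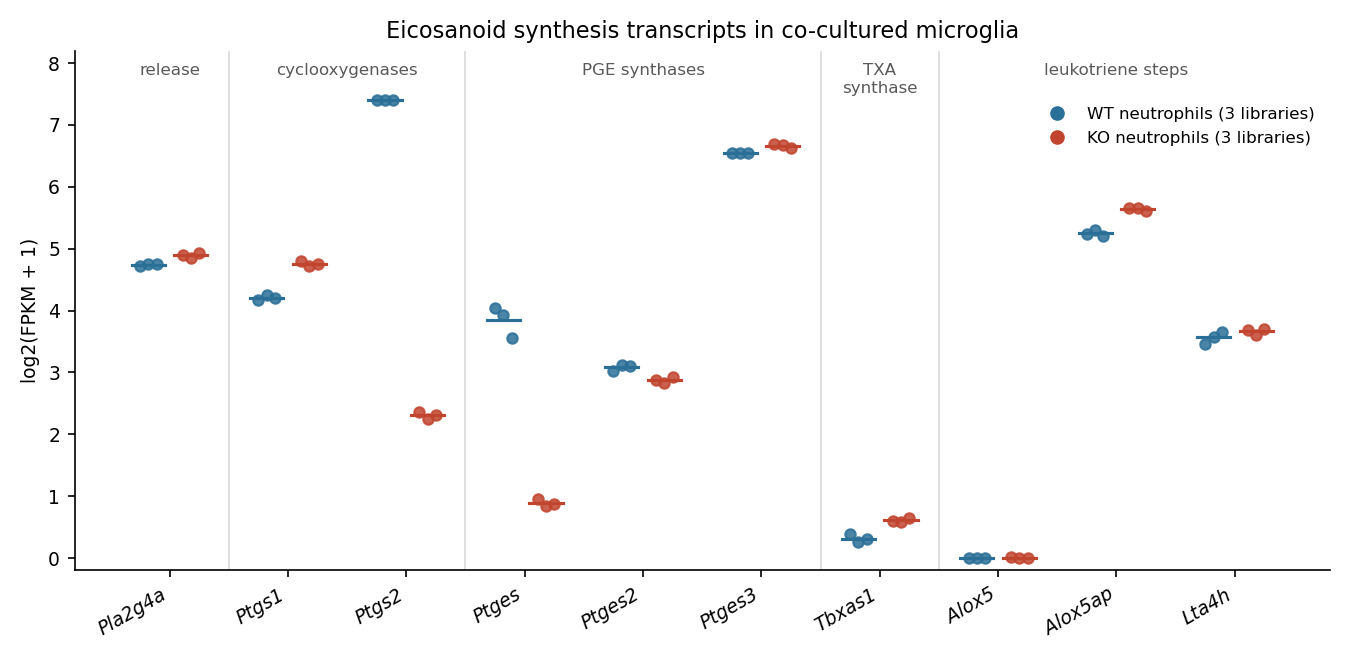
Levels of the 10 eicosanoid synthesis genes, as log2(FPKM + 1), in the 3 libraries in the WT arm (blue) and the 3 in the KO arm (red). Points are libraries and short lines are arm means. Ptgs2 and Ptges are far lower in every KO library, Ptgs1 and Alox5ap are higher, and Alox5 lies at 0.

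Of the 10 genes, 8 averaged 1 FPKM or more across both arms and entered the fit of limma on log2(FPKM + 1), the others being Tbxas1 and Alox5. The call was an adjusted p under 0.05 over all genes tested. For the 10 genes, chosen with this difference known, a call is a description and not a test. Over all 11395 genes tested, 43.3% were called, 24.5% higher and 18.8% lower in the KO arm. Of the 8, 7 were called, 4 higher and 3 lower. Their median log2 change was 0.11, beside 0.02 for all genes tested. Both arms were free of overlap for 7 of these 8, where the share for all genes tested was 55.8%. On a scale that gives each library the same sum (TPM scale), the split of all calls turned from 2789 higher and 2141 lower to 2175 higher and 2660 lower, and that of the 8 became 3 higher and 3 lower.

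Pla2g4a, cytosolic phospholipase A2 alpha, opens the pathway (chromosome 1, 149829618 to 149961290, GRCm38, GENCODE M21). Its FPKM was 25.3, 26.0 and 25.8 in the WT arm and 28.9, 27.9 and 29.6 in the KO arm. All KO libraries lay above all WT libraries, by 1.12-fold in the mean (log2 change 0.16, SE 0.03). On the TPM scale the log2 change of Pla2g4a was 0.11 (SE 0.03). Pla2g4a and Ptgs2 are neighbours, 138.7 kb apart with no protein-coding gene between them. Their values moved in opposite directions, that of Pla2g4a by far less.

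Ptgs2 (chromosome 1, 150100031 to 150108227) had 169, 168 and 168 FPKM in the WT arm and 4.13, 3.77 and 3.99 FPKM in the KO arm. The WT values agreed closely (CV 0.26%, beside a median of 3.37% for the 4789 genes at 10 FPKM or more), and no library came near the other arm. The WT mean was 42.5 times the KO mean (log2 change -5.09, SE 0.03), the fifth largest fall of the 11395 genes tested. With WT neutrophils Ptgs2 stood above 98.1% of the genes tested, and in the KO arm above 28.6%.

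Ptgs1 (chromosome 2, 36230426 to 36252272) had 16.9, 18.1 and 17.4 FPKM in the WT arm and 26.8, 25.5 and 25.8 FPKM in the KO arm. The arms did not overlap, and the KO mean was 1.49 times the WT mean (log2 change 0.55, SE 0.04). A transcript model on the opposite strand, Gm43621, covers 3.81% of its exon bases and had at most 0.658 FPKM. Together the cyclooxygenase transcripts summed to 186 ± 0.191 FPKM in the WT arm and 29.99 ± 0.831 FPKM in the KO arm (SD, n = 3 each). Ptgs2 held 90.9%, 90.3% and 90.6% of this sum in the WT arm and 13.4%, 12.9% and 13.4% in the KO arm. COX-1 was thus the minor transcript in every WT library and the major one in every KO library.

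**Figure D2:**
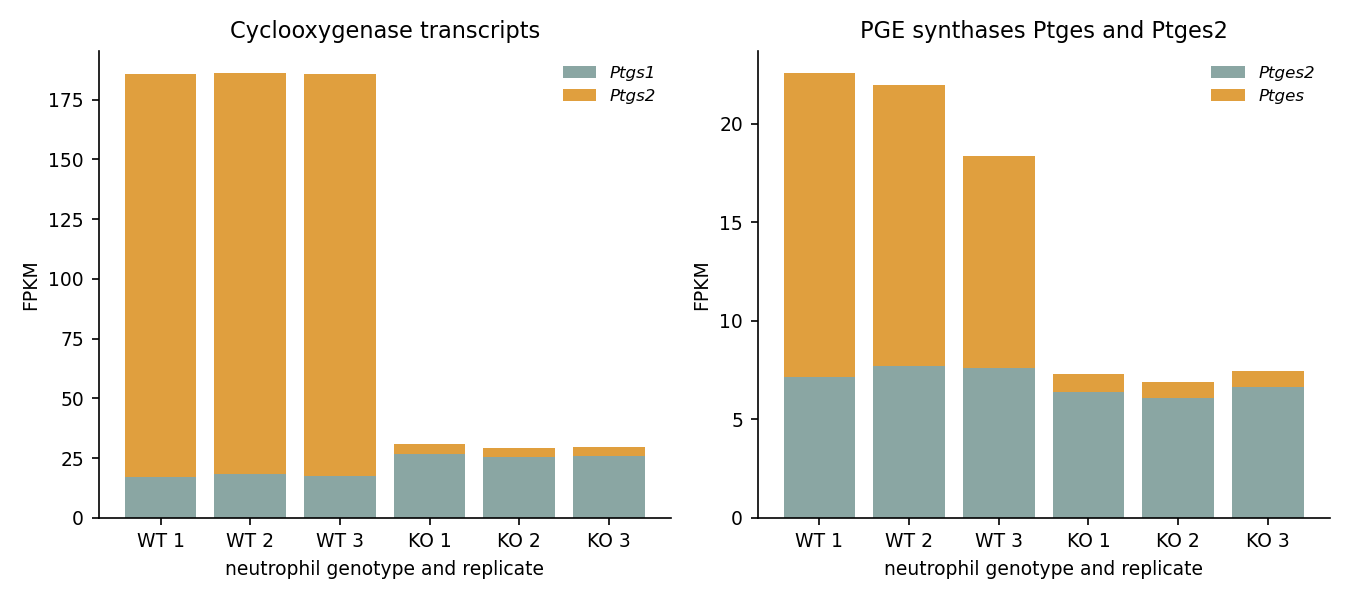
FPKM of the cyclooxygenases Ptgs1 and Ptgs2 (left) and of the membrane-bound PGE synthases Ptges and Ptges2 (right), stacked for each of the 6 libraries. The cyclooxygenase sum is 186 FPKM in each WT library and 29.3 to 30.9 FPKM in the KO libraries, where Ptgs1 makes up most of it.

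The sequences just before the starts of both cyclooxygenase genes are shown because these paralogous enzymes moved in opposite directions. Each is the 250 bases before the RefSeq start in GRCm38.p6, read 5′ to 3′ on the strand of the gene. Capitals mark letters that match 1 of 8 motifs searched on both strands, namely κB, C/EBP (TTGCGCAA), AP-1 (TGANTCA), the CRE core (TGACG), the GC box (GGGCGG), the E-box (CACGTG), the TATA box (TATAAA) and an ETS site as bound by PU.1 (GAGGAA).
Ptgs2, chr1:150099781-150100030, plus strand: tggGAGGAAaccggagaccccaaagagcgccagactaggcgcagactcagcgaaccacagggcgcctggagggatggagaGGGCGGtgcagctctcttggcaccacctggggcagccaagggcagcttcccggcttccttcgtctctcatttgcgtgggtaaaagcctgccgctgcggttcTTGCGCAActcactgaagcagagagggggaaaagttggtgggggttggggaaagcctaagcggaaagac
Ptgs1, chr2:36230176-36230425, plus strand: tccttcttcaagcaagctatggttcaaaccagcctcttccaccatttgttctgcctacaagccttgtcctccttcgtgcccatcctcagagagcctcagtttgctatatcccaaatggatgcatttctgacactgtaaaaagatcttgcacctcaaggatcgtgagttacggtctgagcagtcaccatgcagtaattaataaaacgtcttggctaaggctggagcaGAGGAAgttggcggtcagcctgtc
The Ptgs2 window held the C/EBP letters 69 to 62 bases before the start, a GC box at 170 to 165 and an ETS match at 247 to 242. The C/EBP letters were in 0.164% of 32851 windows of the same length, the GC box in 32.7% and the ETS letters in 23.3%. The Ptgs1 window held only an ETS match, 24 to 19 bases before the start. GC content was 61.6% for Ptgs2 and 48.0% for Ptgs1. Neither window held κB (7.25% of windows), AP-1 (6.75%), CRE core (17.8%), E-box (6.02%) or TATA box (12.4%) letters, which says only that they are not in these 250 bases.

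Noncoding transcripts beside Ptgs2 were read too, chosen by position after their values had been seen. Ptgs2os2 lies downstream on the opposite strand and had 8.59, 9.33 and 8.50 FPKM in the WT arm and 1.62, 2.08 and 1.81 FPKM in the KO arm (log2 change -1.79, SE 0.07). Ptgs2os starts within the printed window on the opposite strand and had 0.524, 0.413 and 0.622 FPKM in the WT arm and 0.0522, 0.0676 and 0.0163 FPKM in the KO arm, too low to be tested. In both cases the arms did not overlap and the WT arm was higher. Whether the authors' quantification used strand is not stated.

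Of the PGE synthases, the inducible one moved most. Ptges, microsomal PGE synthase 1 (chromosome 2, 30889471 to 30929863), had 15.4, 14.3 and 10.8 FPKM in the WT arm and 0.931, 0.800 and 0.830 FPKM in the KO arm. WT replicate 3 was the lowest of its arm, and the WT spread (CV 17.97%) was the widest of the 8 genes tested, yet its value was still far above every KO library. The WT mean was 15.8 times the KO mean (log2 change -2.95, SE 0.13), and without WT replicate 3 the log2 change was -3.10. A pseudocount of 0.1 FPKM gave -3.82. Ptges passed the minimum only through the WT arm, where it was higher.

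The window before the Ptges start is shown because this gene fell together with Ptgs2. The annotation of GENCODE extends the gene further upstream than this RefSeq start.
Ptges, chr2:30903298-30903547, minus strand: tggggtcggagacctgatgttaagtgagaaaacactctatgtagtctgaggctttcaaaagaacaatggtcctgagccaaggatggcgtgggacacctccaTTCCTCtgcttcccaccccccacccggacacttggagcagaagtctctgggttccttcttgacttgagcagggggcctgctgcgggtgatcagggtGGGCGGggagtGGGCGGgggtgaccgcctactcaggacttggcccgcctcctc
It held GC boxes at 53 to 48 and at 42 to 37 bases before the start, and an ETS match on the opposite strand at 149 to 144. Ptges and Ptgs2 thus shared GC box and ETS letters, both common among all windows, and the C/EBP letters were found in Ptgs2 only. Windows were found for 9 of the 10 genes, and none of the other windows held the C/EBP letters.

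Ptges2, the membrane-associated PGE synthase 2 (chromosome 2, 32395896 to 32405772), had 7.15, 7.72 and 7.59 FPKM in the WT arm and 6.36, 6.09 and 6.62 FPKM in the KO arm. The arms did not overlap, but the fall was small (log2 change -0.21, SE 0.05). Ptges3, cytosolic PGE synthase, is better known as the HSP90 co-chaperone p23 (chromosome 10, 128058954 to 128077272). It had 92.9, 92.3 and 92.8 FPKM in the WT arm and 103, 101 and 97.9 FPKM in the KO arm. Its rise of 1.08-fold (log2 change 0.12, SE 0.02) was the smallest that was called, and on the TPM scale it was 0.07 (SE 0.02) and no longer called. Among the membrane-bound enzymes, Ptges held 68.3%, 64.9% and 58.7% of the sum of Ptges and Ptges2 in the WT arm and 12.8%, 11.6% and 11.1% in the KO arm. Ptges3 was the most abundant PGE synthase transcript in every library.

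Tbxas1, thromboxane A synthase (chromosome 6, 38875404 to 39084585), was low throughout. Its FPKM was 0.302, 0.191 and 0.233 in the WT arm and 0.522, 0.498 and 0.561 in the KO arm. The KO values lay above the WT values without overlap, at 2.17 times in the mean, but under the minimum for the fit. Without that minimum its log2 change was 0.30 (SE 0.05) and it was called, at a level too low for a firm statement.

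In the leukotriene branch, Alox5 (5-lipoxygenase, chromosome 6, 116410077 to 116461178) was listed at 0 in 5 libraries and at 0.0153 FPKM in KO replicate 1. Alox5ap, its activating protein FLAP (chromosome 5, 149264767 to 149288153), had 36.8, 38.5 and 36.0 FPKM in the WT arm and 49.8, 49.4 and 48.0 FPKM in the KO arm. Every KO library lay above every WT library, by 1.32-fold in the mean (log2 change 0.39, SE 0.03). An antisense model, Gm19719, covers 13.3% of the exon bases of Alox5ap and had at most 0.132 FPKM. Lta4h, leukotriene A4 hydrolase (chromosome 10, 93453411 to 93484875), had 10.1, 10.9 and 11.6 FPKM in the WT arm and 11.9, 11.2 and 12.1 FPKM in the KO arm. Its arms overlapped and it was not called (log2 change 0.10, SE 0.06). Its log2 change was 0.05 without WT replicate 1, 0.15 without WT replicate 3 and 0.06 on the TPM scale. Since the depth is unknown, the values of Alox5 do not show that its transcript was absent.

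The order of the 10 levels also differed between the arms. With WT neutrophils it was Ptgs2, Ptges3, Alox5ap, Pla2g4a, Ptgs1, Ptges, Lta4h, Ptges2, Tbxas1 and Alox5. Only Ptges and Lta4h overlapped in value among neighbours of that order. With KO neutrophils it was Ptges3, Alox5ap, Pla2g4a, Ptgs1, Lta4h, Ptges2, Ptgs2, Ptges, Tbxas1 and Alox5, and no neighbours overlapped. Leaving out Ptgs2 and Ptges, the remaining genes stood in the same order in both arms. Since each library is a bulk sample, fewer cells of a type and less RNA per cell cannot be told apart for any of these genes.

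**Figure D3:**
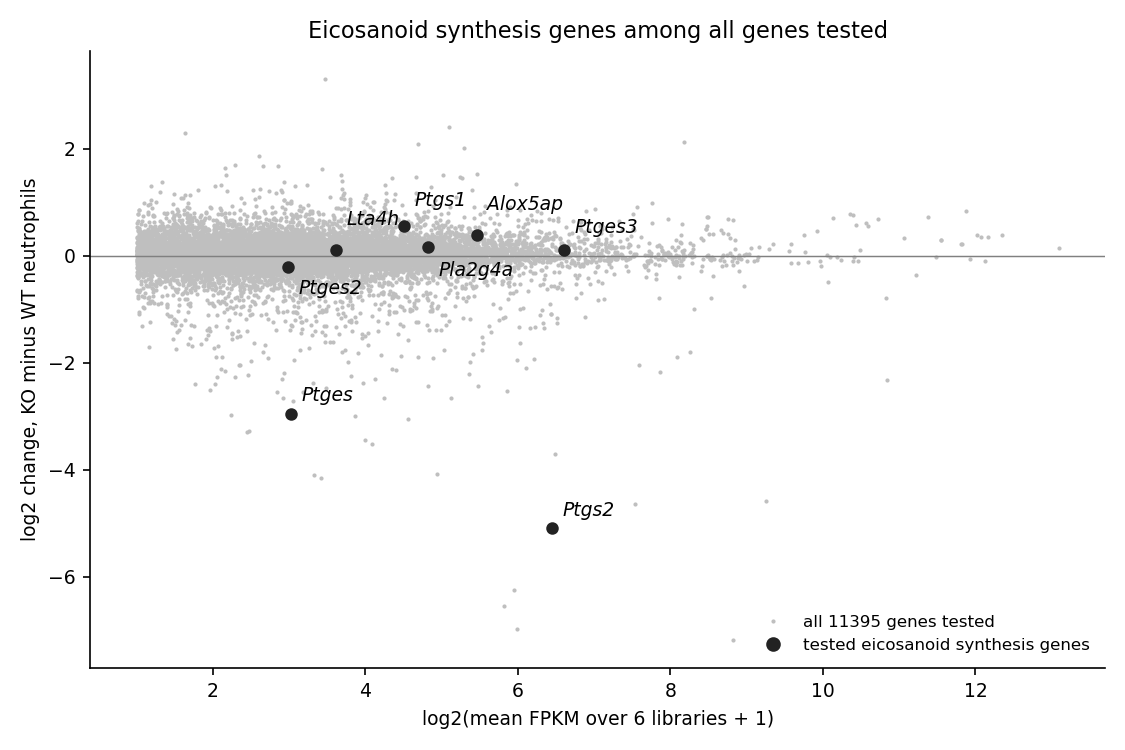
Log2 change on the log2(FPKM + 1) scale, KO minus WT neutrophils, against the log2 mean level, for the 11395 genes tested (grey) and the 8 tested eicosanoid synthesis genes (black). Ptgs2 at -5.09 and Ptges at -2.95 lie far under the cloud, and the other 6 lie between -0.21 and 0.55.

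To see which genes behaved most like Ptgs2, centred log2(FPKM + 1) profiles over the 6 libraries were compared by their root mean square difference. The closest were Acod1 (0.24), Ccl2 (0.26), Nos2 (0.47), Il6 (0.51) and Il1a (0.51), in log2 units. Acod1, which makes itaconate, had 354 ± 2.08 FPKM in the WT arm and 13.3 ± 0.443 FPKM in the KO arm (SD, n = 3 each). Ccl2, a monocyte attractant, had 1169 ± 17.4 and 48.0 ± 2.28 FPKM (SD, n = 3 each). As the libraries form only 2 arms, this likeness mostly reflects a difference between arms of similar size.

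Other genes of the pathway were read from a list of 64, of which 29 averaged 1 FPKM or more. Of these 29, limma called 21, 12 higher and 9 lower in the KO arm, with a median log2 change of 0.08, where over all genes tested 43.3% were called, 24.5% higher and 18.8% lower. More than 2-fold changes were called for Pla2g5, Ptgir and Mgst3. Another 13 of the 64 were listed at 0 in all libraries.

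Among phospholipases and genes of arachidonate handling, 12 of 21 were tested, with 4 higher and 3 lower, where 43.3% of all genes tested were called. Pla2g5, a secreted phospholipase A2, had 74.9, 78.6 and 79.1 FPKM in the WT arm and 33.3, 35.1 and 35.01 FPKM in the KO arm (log2 change -1.15, SE 0.03, limma adjusted p = 2.47e-06). Its level was above that of Pla2g4a in every library. Acsl4, which esterifies arachidonate to coenzyme A, fell from 66.8 ± 0.833 to 54.9 ± 1.01 FPKM (SD, n = 3 each; limma adjusted p = 2.21e-04). Fads1, a desaturase that forms arachidonate, rose from 22.2 ± 0.806 to 27.3 ± 0.558 FPKM (SD, n = 3 each; limma adjusted p = 0.00112). Daglb, a diacylglycerol lipase, rose from 1.70 ± 0.144 to 2.84 ± 0.236 FPKM (SD, n = 3 each; limma adjusted p = 0.0022).

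The other terminal synthases gave 3 tested genes of 6. Hpgds, hematopoietic prostaglandin D synthase, fell from 26.6 ± 0.0806 to 22.7 ± 0.485 FPKM (log2 change -0.22, limma adjusted p = 0.00106; SD, n = 3 each). Akr1b3, an aldose reductase that also forms prostaglandin F2 alpha, rose from 10.3 ± 0.485 to 13.6 ± 0.0735 FPKM (SD, n = 3 each; limma adjusted p = 7.15e-04). Cbr1, a carbonyl reductase, had 1.86, 1.84 and 1.78 FPKM in the WT arm and 3.19, 2.55 and 1.34 FPKM in the KO arm and was not called (log2 change 0.21, limma adjusted p = 0.452). Its value rested on single libraries, at 0.45 and called without KO replicate 3 (limma adjusted p = 0.0159) and at 0.03 without KO replicate 1 (limma adjusted p = 0.913). Ptgis, prostacyclin synthase, had at most 0.0626 FPKM.

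Of the other lipoxygenases none was tested, and Alox12 and Alox15 had at most 0.0254 and 0.0914 FPKM. In the cysteinyl leukotriene steps, Mgst3, a microsomal glutathione transferase, had 4.88, 4.01 and 4.14 FPKM in the WT arm and 10.8, 13.7 and 12.9 FPKM in the KO arm (log2 change 1.33, SE 0.10, limma adjusted p = 1.37e-04). Its relative Mgst2 rose from 10.8 ± 0.265 to 12.9 ± 0.359 FPKM (SD, n = 3 each; limma adjusted p = 0.00303). Dpep2, a dipeptidase that trims leukotriene D4, fell from 3.16 ± 0.343 to 2.34 ± 0.0807 FPKM (SD, n = 3 each; limma adjusted p = 0.0151). Its symbol has 2 identifiers, and only the one with the higher mean was read. Ltc4s, leukotriene C4 synthase, lay just under the minimum, with 0.503, 0.600 and 0.541 FPKM in the WT arm and 1.09, 0.958 and 1.45 FPKM in the KO arm, and was named after its values had been seen.

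Among 13 receptors, 3 were tested and all 3 were called, too few to read against the 43.3% called over all genes tested. Ptgir, the prostacyclin receptor, had 84.97, 86.8 and 86.9 FPKM in the WT arm and 42.8, 42.2 and 42.4 FPKM in the KO arm (log2 change -1.01, SE 0.02, limma adjusted p = 6.09e-07). Its level was the highest of the 13 receptors in every library, and the arms lay far apart. Ptger4, the EP4 receptor for PGE2, had 0.837, 0.719 and 1.01 FPKM in the WT arm and 1.33, 1.78 and 1.51 FPKM in the KO arm (log2 change 0.45, SE 0.10, limma adjusted p = 0.0116). It passed the minimum only through the KO arm, where it was higher. Cysltr1, a receptor for cysteinyl leukotrienes, rose from 1.25 ± 0.0494 to 2.07 ± 0.0583 FPKM (SD, n = 3 each; limma adjusted p = 0.00132). The remaining 10, among them the other PGE2 receptors and both leukotriene B4 receptors, stayed at or under 0.449 FPKM.

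For breakdown and transport, 4 of 8 genes were tested, with 2 higher and 2 lower, too few to read against the 43.3% called over all genes tested. Ptgr2 and Ptgr1, reductases that inactivate prostaglandins and leukotriene B4, rose from 12.4 ± 0.210 to 15.7 ± 0.238 FPKM (limma adjusted p = 4.26e-04) and from 9.40 ± 0.158 to 10.6 ± 0.149 FPKM (limma adjusted p = 0.00957; SD, n = 3 each). The exporters Abcc1 and Abcc4, for leukotriene C4 and for PGE2, fell from 12.7 ± 0.161 to 9.03 ± 0.426 FPKM (limma adjusted p = 3.27e-04) and from 15.6 ± 0.827 to 13.3 ± 0.698 FPKM (limma adjusted p = 0.0191; SD, n = 3 each). The call for Abcc4 was lost without WT replicate 3, KO replicate 2 or KO replicate 3 (limma adjusted p = 0.0513, 0.0589 and 0.0593). Hpgd, which starts the breakdown of prostaglandins, and the importer Slco2a1 were listed at 0 in all libraries.

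Of the genes that support 5-lipoxygenase and cytosolic phospholipase A2, all 4 were tested. Mapkapk2, the kinase MK2, which phosphorylates 5-lipoxygenase, had 168, 167 and 170 FPKM in the WT arm and 93.7, 95.4 and 95.0 FPKM in the KO arm (log2 change -0.82, SE 0.02, limma adjusted p = 8.87e-07). Cotl1, coactosin-like protein, a binding partner of 5-lipoxygenase, rose from 88.6 ± 3.25 to 119 ± 3.01 FPKM (SD, n = 3 each; limma adjusted p = 1.56e-04). Mapk14, the kinase p38 alpha upstream of MK2, had 5.49, 5.97 and 4.998 FPKM in the WT arm and 19.3, 7.96 and 6.44 FPKM in the KO arm and was not called (limma adjusted p = 0.129). KO replicate 1 stood far above the others, and without it the log2 change was 0.34 in place of 0.77. Mapkapk3, a close relative of MK2, was not called either (limma adjusted p = 0.165).

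**Figure D4:**
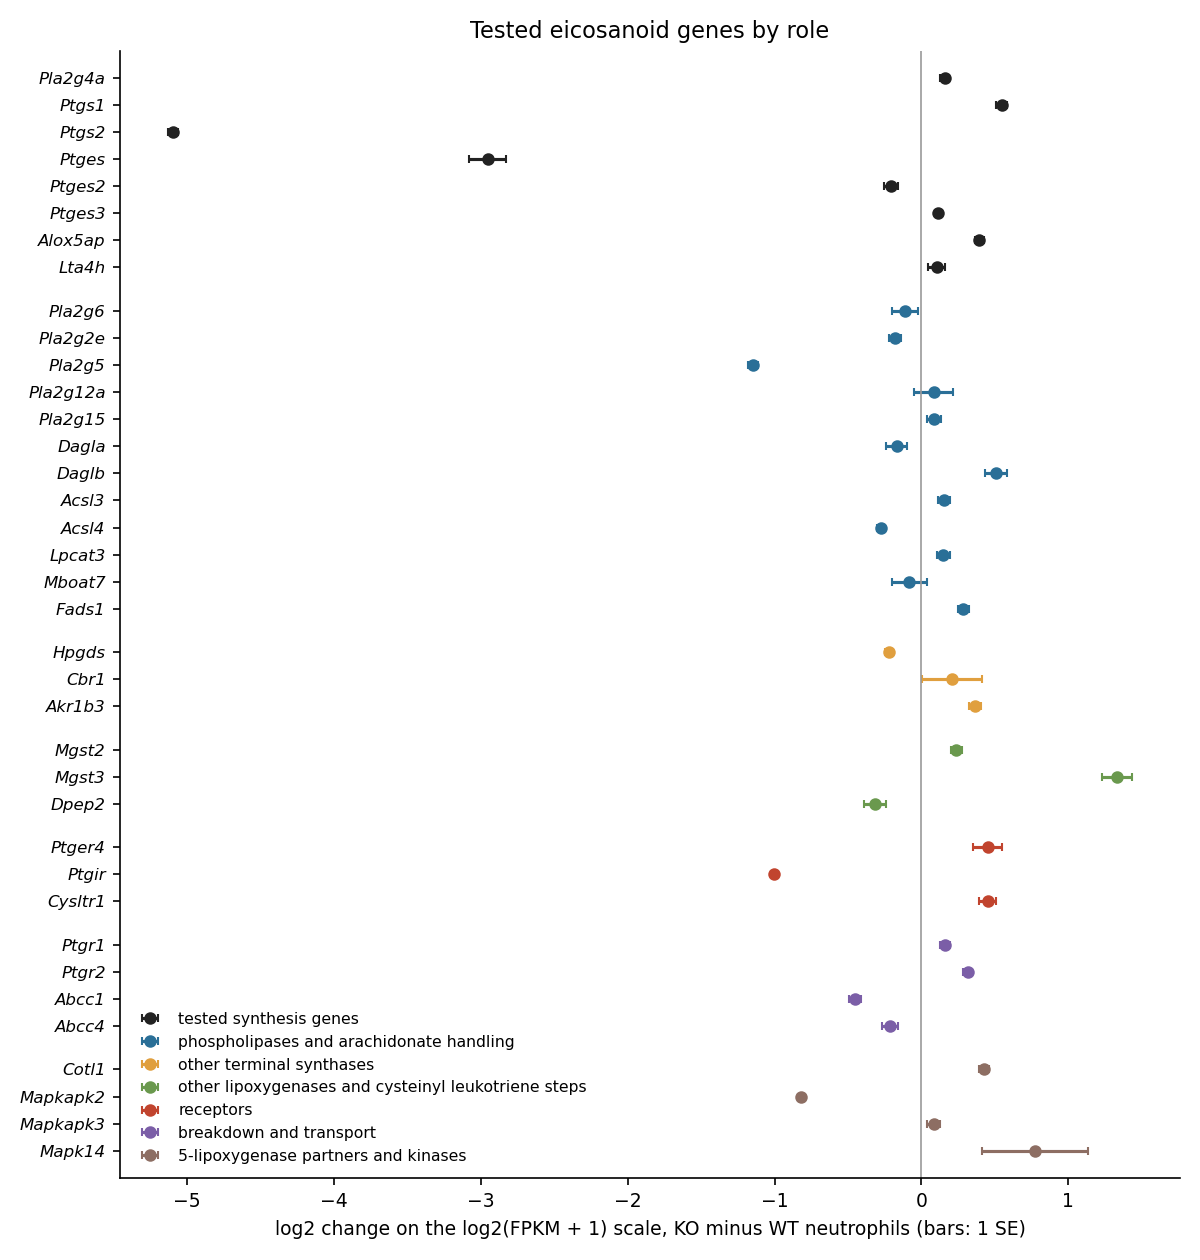
Log2 change on the log2(FPKM + 1) scale, KO minus WT neutrophils, for the 8 tested synthesis genes and 29 tested other genes of the pathway, coloured by role. Bars are 1 SE. Ptgs2 and Ptges stand far to the left, followed by Pla2g5 and Ptgir, and Mgst3 lies farthest to the right.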

How the data were processed

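The authors deposited 1 table of FPKM values for 6 libraries of sorted microglia, without pooling, grouped here by sample title. The submitters' processing notes name fastp 0.17.1, HISAT2 2.1.0, DESeq2 1.18.1 and R 3.4.3. The quantifier, build and annotation are not given in the sources used here, and labels and methods name different library kits and sequencers. Symbols were found for 55154 of 55335 identifiers (99.67%), with positions from GENCODE M21 (GRCm38). Depth is unknown: of low values, 44.1% to 52.6% lay within 0.1 of a whole multiple of the step that fitted each library best. A step fixed in advance would give 20% by chance, and the chance share for a step chosen this way is not known. With many values off the step, reads were not recovered and no count test was run.

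limma 3.58.1 in R 4.3.3 (moderated, trended variance) was fitted to log2(FPKM + 1), KO minus WT, for the 11395 genes averaging 1 FPKM or more, with Benjamini-Hochberg adjustment over all of them and a call under 0.05. Changes of low genes are understated. The script was tested on simulated data. An exact permutation of 3 against 3 cannot go below 0.1 and was not used.

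The 10 genes, the lists and the tests were chosen with earlier results of these data known. Named were all 10, every tested receptor and up to 4 other tested genes per class with the smallest p. Ptgis, Alox12, Alox15, Ltc4s, Hpgd and Slco2a1, which were not tested, were named outside this rule after their values had been seen. From the planned microglia and macrophage markers, 1 was left out of every count and sum and is not reported here. Promoter windows come from RefSeq (GRCm38.p6). Alternatives were a pseudocount of 0.1, no minimum or one of 5 FPKM, quantile normalization, centring on the median, the TPM scale, a fit without trend, the replicate block, and each library left out.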

Additional observations from a re-analysis of the deposited data

How the results depend on the processing

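The numbers of genes called held within 1.5 times under every alternative, but the shares called did not. Over all genes 3763 to 4931 were called with all 6 libraries and 4082 to 4223 when 1 library was left out. The number tested differed, with 3763 called of 7383 at a minimum of 5 FPKM and 4504 of 25195 without a minimum. Of the 4930 genes called in the main fit, 3901 were also called without a minimum. Of the 8 synthesis genes 7 were called in each setting except the TPM scale, with 6, and the fit without a minimum, which added Tbxas1 for 8 of 10. Of the other pathway genes 17 to 23 were called, from 17 of 21 at a minimum of 5 FPKM to 23 of 51 without one. Of 401 comparisons of single named genes, 396 kept direction and call, 4 were weaker, 1 was stronger and 0 reversed. These genes were named with the main fit known, and every setting reused the same libraries, so such stability is no independent support. The fits with no minimum, a minimum of 5 FPKM, no trend or the replicate block left each log2 change as it was, so no direction could reverse there. The weaker ones were Ptges3 on the TPM scale and Abcc4 without WT replicate 3, KO replicate 2 or KO replicate 3 (limma adjusted p = 0.0513, 0.0589 and 0.0593), and the stronger one was Cbr1 without KO replicate 3. The TPM scale sets all libraries to 1 sum and also makes values larger against the pseudocount. The smaller pseudocount alone left Ptges3 at 0.12 and called, and the split of all calls at 2783 higher and 2142 lower.

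Replicate numbers did not pair the libraries, with correlations of deviations of -0.075, -0.052 and -0.005 across 11395 genes, and 0 of 3 WT libraries was closest to the KO library of its own number. With the replicate block 4212 genes were called, 7 of the 8 synthesis genes and 19 of the other pathway genes. Without a known depth, Alox5, Tbxas1 and Ltc4s are too low for firm statements.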
